A study of Mus musculus with 20 samples.

Results

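A set of 9 genes that code for transcription regulators of the male germ line were followed through 8 sorted fractions of adult mouse testis: Tbpl1, Gtf2a1l, Taf7l and Taf7 of the general transcription machinery, Crem and its partner Fhl5, the SOX factors Sox30 and Sox5, and the zinc finger factor Ovol1. The members were every probe set that the platform annotation gave to 1 of these 9 genes alone, which came to 22 of the 45037 probe sets on the array. Of the 22, 16 had a log2 signal of at least 5 in at least 2 arrays and were tested, and every gene had at least 1 of them. The other 6, which were 4 of the 7 probe sets of Sox5, 1 of the 4 of Crem and 1 of the 3 of Taf7, stayed below that level and were not tested. For each gene the probe set with the highest mean over all arrays stands for it in the counts below.

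The RNA came from male C57BL/6 x DBA/2J F1 mice of 10 to 16 weeks, per the labels, whose dissociated testis cells were sorted on Hoechst fluorescence, a dye that separates germ cells by DNA content and chromatin state. Spermatogonia and round spermatids had 4 arrays each, pre-leptotene and leptotene-zygotene cells 3 each, mid-pachytene and diplotene spermatocytes 2 each, and the early- and late-pachytene fractions a single array. All fractions came from untreated animals of the same cross, each array held a pool of several sorts, and the leptotene-zygotene fraction was a mixture of both stages. The values are GC-RMA signals on the log2 scale, on which 1 unit is a doubling, and for arrays it is the number of replicates that limits the precision. Because the arrays measured bulk RNA, fewer cells of a type and less RNA per cell cannot be told apart.

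A germ cell that has entered meiosis changes its transcription machinery along with its genes. Somatic TFIID, the complex of TBP and its TAF subunits that finds promoters, is joined in the testis by variants coded by separate genes, and the activator CREM, a relative of the ubiquitous CREB, takes up in haploid cells the task of switching on the protamine and transition protein genes that later pack the sperm nucleus. CREM does this with FHL5, also called ACT, a LIM-domain protein that serves as its coactivator without phosphorylation of CREM. Earlier, in pachynema, MYBL1 is a main activator of the meiotic program.

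The labels of the fractions were set against defining markers. The summed signal of 4 spermatogonial markers, Zbtb16, Dmrt1, Kit and Stra8, lay between 17507 and 24024 in spermatogonia, between 21040 and 26810 in leptotene-zygotene cells and between 92.7 and 887 in round spermatids. That of 5 round spermatid markers, Prm1, Prm2, Tnp1, Tnp2 and Acrv1, lay between 73972 and 109862 in round spermatids but also between 41639 and 155407 in spermatogonia, against 23868 to 35974 in pre-leptotene cells and 13082 in the late-pachytene array. The signal of spermatid genes in the sorted spermatogonia thus overlapped with that in round spermatids, and the highest value was in spermatogonia replicate 2. The 4 leptotene-zygotene markers summed to 14896 to 19370 in that fraction but to 18714 to 24450 in mid-pachytene cells, and the 4 pachytene markers to 37597 in early-pachytene, 58976 to 62622 in mid-pachytene, 78149 in late-pachytene and 69503 to 87311 in round spermatids. These lists did not separate the fractions they name from later ones. Of 4 Sertoli markers, Sox9 and Amh stayed under a log2 signal of 5 in every array and Wt1 and Rhox5 exceeded it in some, and the list summed to 37.4 to 124 over all arrays. The 3 measured Leydig markers summed to 31.1 to 322. The summed macrophage markers were 1196 to 5535 in spermatogonia, 1429, 73.1 and 55.1 in the 3 pre-leptotene arrays and at most 161 in every fraction from leptotene-zygotene on.

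Set against the 3 fractions before pachynema, spermatogonia, pre-leptotene and leptotene-zygotene, all 9 genes differed in round spermatids. The 7 that rose were Gtf2a1l 59.3-fold, Sox5 49.0-fold, Crem 35.6-fold, Fhl5 15.1-fold, Sox30 9.44-fold, Tbpl1 6.60-fold and Ovol1 2.82-fold. The other 2, Taf7l and Taf7, fell, by 19.2-fold and 9.47-fold. This comparison moved most of the transcriptome: of 11952 genes tested, 83.0% passed the same limma test at an adjusted p of 0.05, 38.7% higher and 44.3% lower, so that passing it is no mark of these genes, and their median change of 3.24 on the log2 scale stands beside one of -0.22 over all genes. In each of the 9 genes the 4 round spermatid arrays did not overlap with the 10 arrays before pachynema, as in 66.8% of all genes. The same 7 genes were higher and the same 2 lower after a second quantile normalization and after centring each array on its median, although the median of all probe sets in this comparison moved from -0.36 to -0.083 and -0.42 on the log2 scale. All comparisons between fractions draw on the same 20 arrays and share groups, so they are not independent of each other.

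**Figure D1:**
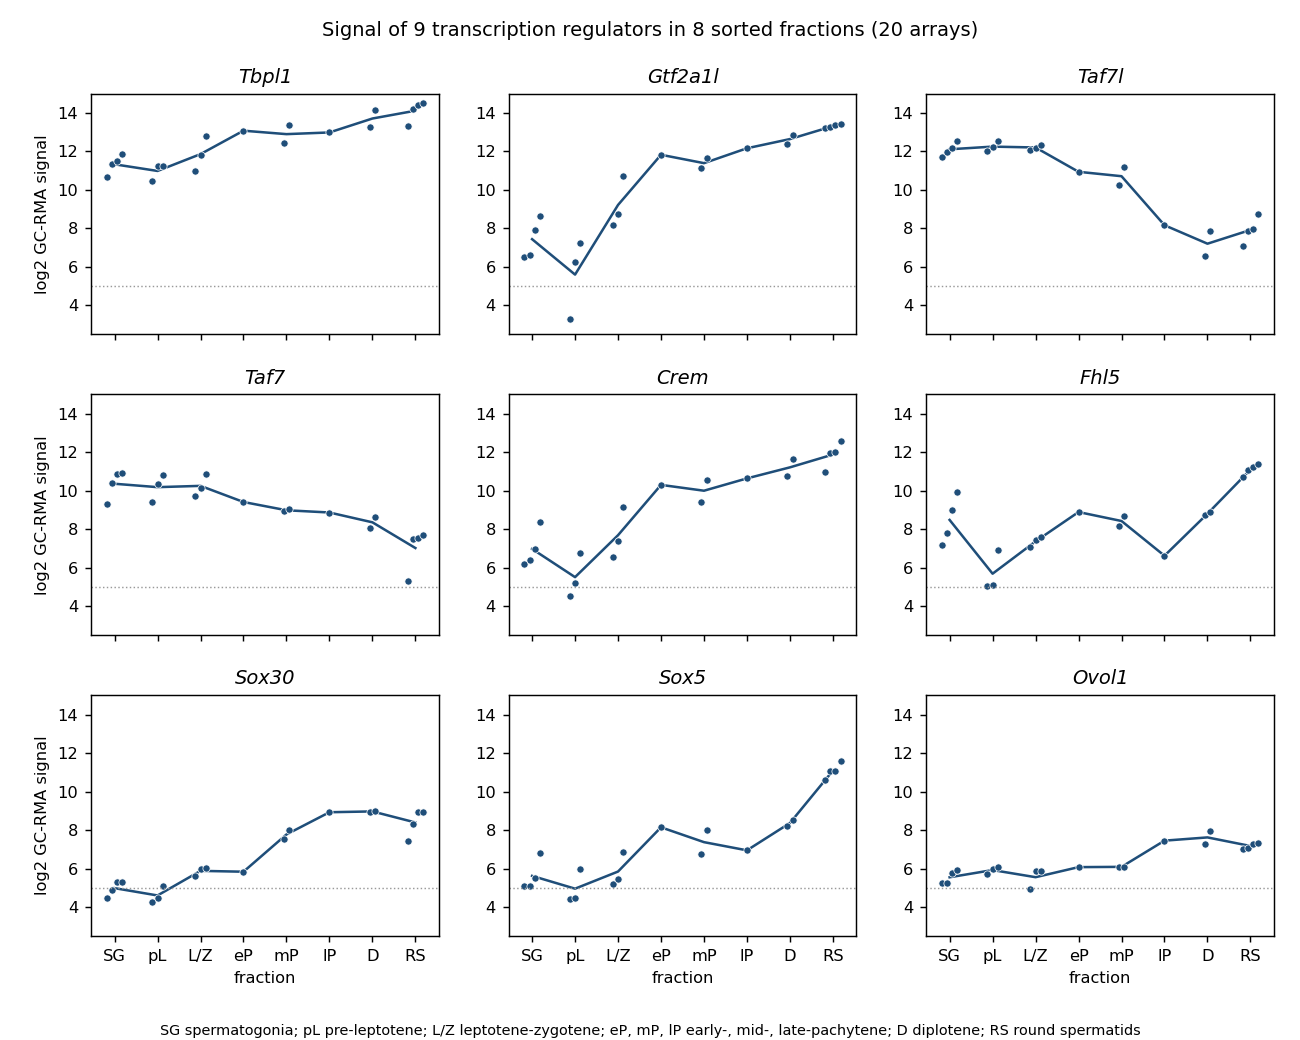
Log2 GC-RMA signal (vertical axis) of the 9 genes in the 8 sorted fractions (horizontal axis); each point is 1 array, the line joins the fraction means, and the dotted line marks a log2 signal of 5. In Sox5 and Fhl5 the 4 round spermatid arrays stand above all others, in Gtf2a1l and Crem all arrays from early-pachytene on stand above the 10 before, and Taf7l and Taf7 decline.

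Tbpl1 codes for the TBP-like protein TBPL1, also known as TRF2 or TLF, which binds TFIIA and is needed for spermiogenesis. Its signal was 10.66, 11.49, 11.32 and 11.84 in the 4 spermatogonial arrays, 10.46, 11.24 and 11.25 in the pre-leptotene arrays and 10.99, 11.79 and 12.79 in the leptotene-zygotene arrays. It was 13.07 in early-pachytene, 12.43 and 13.36 in mid-pachytene, 12.98 in late-pachytene, 13.28 and 14.14 in diplotene cells, and 13.34, 14.19, 14.41 and 14.50 in round spermatids. The gene was thus already well above background in spermatogonia and climbed in small steps, with leptotene-zygotene replicate 3 reaching into the mid-pachytene range and round spermatids overlapping with diplotene cells. The rise from the fractions before pachynema to round spermatids was 2.72 (SE 0.34, adjusted p = 1.7e-06), while no single step between neighbouring fractions passed the test. With array project as a block 2 steps did, from leptotene-zygotene to mid-pachytene (1.34, adjusted p = 0.0054) and from mid-pachytene to diplotene cells (0.81, adjusted p = 0.044).

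A second probe set of Tbpl1, 1434907_at, had another course. It lay between 4.41 and 6.25 in the 10 arrays before pachynema and at 5.69 in early-pachytene, rose to 8.13 and 7.56 in mid-pachytene and 8.89 in late-pachytene, and was 8.37 and 7.34 in diplotene cells. In round spermatids it was back at 5.88, 5.53, 4.79 and 5.67. The step from leptotene-zygotene to mid-pachytene was a rise of 1.82 (SE 0.42, adjusted p = 0.0051), and from diplotene cells to round spermatids the signal fell by 2.39 (SE 0.40, adjusted p = 0.00053), with no overlap of arrays in either step. Over the 20 arrays the correlation of the 2 probe sets was r = 0.33, so the rise given for Tbpl1 in round spermatids holds for 1431415_a_at and not for 1434907_at, whose change from before pachynema to round spermatids was 0.0040 (SE 0.27, adjusted p = 0.99). Why they differ was not tested.

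Gtf2a1l codes for the germ cell form of the large TFIIA subunit, the factor that steadies TBP or TBPL1 on a promoter. It had the largest rise of the 9 genes, and a 250-base window from the RefSeq promoters is shown for that reason, on the plus strand of chr17:88668410-88668659 of GRCm38.p6. It ends at a transcript start that lies 3167 bases inside the gene as annotated, so it is upstream of that start and not of the whole gene. Capitals mark the MYB core AACNG on either strand.

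Gtf2a1l: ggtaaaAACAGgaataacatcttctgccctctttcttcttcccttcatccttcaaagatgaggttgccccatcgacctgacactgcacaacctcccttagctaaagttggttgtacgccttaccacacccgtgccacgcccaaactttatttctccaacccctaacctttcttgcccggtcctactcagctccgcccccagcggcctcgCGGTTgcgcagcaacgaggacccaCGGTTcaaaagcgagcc

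The signal of Gtf2a1l was 6.64, 8.65, 6.53 and 7.94 in spermatogonia, 3.29, 7.23 and 6.27 in pre-leptotene and 8.19, 8.75 and 10.71 in leptotene-zygotene cells. It was 11.82 in early-pachytene, 11.12 and 11.66 in mid-pachytene, 12.16 in late-pachytene, 12.41 and 12.87 in diplotene cells and 13.22, 13.24, 13.42 and 13.36 in round spermatids. Every array from early-pachytene on lay above every array before it, and the round spermatids lay above all other arrays. The gene was the only one of the 9 to pass the test between pre-leptotene and leptotene-zygotene cells, with a rise of 3.62 (SE 0.83, adjusted p = 0.037) where 2.59% of all genes passed, 2.51% higher and 0.0837% lower. The adjusted p of this step was 0.14 without pre-leptotene replicate 1, whose 3.29 is near background, 0.085 without pre-leptotene replicate 3, 0.065 without leptotene-zygotene replicate 2 and 0.23 without leptotene-zygotene replicate 3. It was 0.10 with no filter on low signals and 0.27 with the arrays of the compared fractions only. The rise from before pachynema to round spermatids was 5.89 (SE 0.60, adjusted p = 1.6e-07), and 5.70 with values under 5 raised to 5.

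Taf7l and Taf7 code for paralogous subunits of TFIID, and TAF7L is known to move into the nucleus of spermatocytes as TAF7 is lost. Taf7l is shown as the gene of the set with the largest fall, with the 250 bases before a transcript start 15 bases inside the annotated gene, on the minus strand of chrX:134476491-134476740, and the MYB core again in capitals.

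Taf7l: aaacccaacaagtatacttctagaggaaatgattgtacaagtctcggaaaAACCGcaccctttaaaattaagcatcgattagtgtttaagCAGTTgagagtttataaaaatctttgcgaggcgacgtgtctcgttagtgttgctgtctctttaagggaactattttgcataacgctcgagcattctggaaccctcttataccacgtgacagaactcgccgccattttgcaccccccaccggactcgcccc

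Taf7l was at 11.95, 11.73, 12.56 and 12.19 in spermatogonia, 12.21, 12.02 and 12.51 in pre-leptotene and 12.18, 12.10 and 12.33 in leptotene-zygotene cells. It was 10.94 in early-pachytene, 11.17 and 10.25 in mid-pachytene, 8.16 in late-pachytene and 7.86 and 6.55 in diplotene cells. Round spermatids had 8.75, 7.85, 7.99 and 7.08. The signal was therefore level up to zygonema, lower in every array from early-pachytene on, and lowest in diplotene cells, with round spermatids overlapping with both diplotene and late-pachytene arrays.

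Of these steps 2 passed the test. From leptotene-zygotene to mid-pachytene Taf7l fell by 1.49 (SE 0.46, adjusted p = 0.023), a call lost without leptotene-zygotene replicate 1 (adjusted p = 0.052) or 3 (0.053) and without mid-pachytene replicate 2 (0.28), and from mid-pachytene to diplotene cells it fell by 3.51 (SE 0.50, adjusted p = 0.00023), which was kept without any single array but not with the arrays of the 2 compared fractions only (0.056). Round spermatids were 0.71 higher than diplotene cells (SE 0.43, adjusted p = 0.27), a difference that was 1.06 and passed (adjusted p = 0.025) with the array project as a block and was 0.89 and 1.44 in the 2 projects that held both fractions. The total fall to round spermatids was 4.27 (SE 0.30, adjusted p = 2.0e-09). Taf7l lies on chromosome X, which the paper reported as silenced when pachynema begins, with partial reactivation of some genes from diplonema. The share of this silencing in the course of Taf7l was not tested.

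Taf7 was at 9.30, 10.38, 10.90 and 10.87 in spermatogonia, 9.40, 10.33 and 10.83 in pre-leptotene and 9.72, 10.16 and 10.88 in leptotene-zygotene cells. It was 9.41 in early-pachytene, 9.03 and 8.94 in mid-pachytene, 8.87 in late-pachytene, 8.08 and 8.63 in diplotene cells and 5.34, 7.56, 7.50 and 7.70 in round spermatids. The decline was gradual and ended lowest in round spermatids, all 4 of which lay under every other array, replicate 1 far below the rest. No single step passed the test, but round spermatids were lower than the mean of mid-pachytene and diplotene cells by 1.65 (SE 0.51, adjusted p = 0.015) and lower than the fractions before pachynema by 3.24 (SE 0.43, adjusted p = 3.1e-06), and the latter was 2.68 without round spermatid replicate 1. The other tested probe set, 1423170_at, gave 3.21 for the same fall (adjusted p = 3.1e-06).

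Crem codes for the CRE-binding activator that haploid germ cells need for spermatid development, and its activating and repressing forms come from the same gene by alternative splicing and promoters. Its probe set 1430847_a_at had 6.20, 8.36, 6.39 and 6.96 in spermatogonia, 4.53, 6.77 and 5.23 in pre-leptotene and 6.56, 7.37 and 9.14 in leptotene-zygotene cells. It had 10.30 in early-pachytene, 9.43 and 10.57 in mid-pachytene, 10.64 in late-pachytene, 10.77 and 11.66 in diplotene cells and 10.97, 12.03, 12.57 and 11.95 in round spermatids. Every array from early-pachytene on was above every earlier one, the nearest being leptotene-zygotene replicate 3, and round spermatids overlapped with diplotene cells.

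From leptotene-zygotene to mid-pachytene Crem rose by 2.31 (SE 0.80, adjusted p = 0.041), and in the 1 array project that held both fractions the rise was 3.20. That call was lost without leptotene-zygotene replicate 1 (adjusted p = 0.15) or 2 (0.10) and without mid-pachytene replicate 1 (0.050) or 2 (0.31), and also with no filter on low signals (0.10) and with the arrays of the compared fractions only (0.073). The rise from before pachynema to round spermatids was 5.15 (SE 0.52, adjusted p = 1.4e-07). Round spermatids were 1.27 above the mean of mid-pachytene and diplotene cells (SE 0.62), a difference that did not pass (adjusted p = 0.11).

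The 2 further tested probe sets of Crem peaked earlier. The one with identifier 1418322_at lay between 3.22 and 5.37 before pachynema, at 5.29 in early-pachytene, 7.0 and 6.46 in mid-pachytene, 8.17 in late-pachytene and 7.70 and 7.04 in diplotene cells, and had 6.97, 6.93, 6.57 and 6.34 in round spermatids. Its rise into mid-pachytene, 2.34 (SE 0.47, adjusted p = 0.0022), came with no overlap of arrays, as did its rise of 2.62 to round spermatids (SE 0.31, adjusted p = 7.8e-07). The third, 1449037_at, never exceeded 6.31 and changed by 0.98 to round spermatids (SE 0.32, adjusted p = 0.011) with overlapping arrays. The rise of Crem was thus seen in all 3 tested probe sets, whereas the highest fraction mean was in round spermatids for 1 and in late-pachytene for the other 2.

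Fhl5, the CREM coactivator, had 9.0, 9.94, 7.82 and 7.17 in spermatogonia, 5.03, 6.92 and 5.12 in pre-leptotene and 7.57, 7.08 and 7.45 in leptotene-zygotene cells. It had 8.89 in early-pachytene, 8.15 and 8.71 in mid-pachytene, 6.62 in late-pachytene and 8.73 and 8.88 in diplotene cells. Round spermatids had 11.40, 11.06, 11.25 and 10.69, above every other array. The gene dipped at 2 points of the series, pre-leptotene and late-pachytene, and spermatogonia were as high as mid-pachytene cells.

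Fhl5 rose from diplotene cells to round spermatids by 2.29 (SE 0.62, adjusted p = 0.013), and by 2.37 and 2.67 within the 2 array projects that held both fractions. The call was lost when diplotene replicate 1 (adjusted p = 0.10) or 2 (0.059) was left out, which leaves 1 diplotene array. Against the mean of mid-pachytene and diplotene cells the rise was 2.48 (SE 0.51, adjusted p = 0.00093) and was kept without any single array. Fhl5 was also the 1 member of the 9 that passed between spermatogonia and pre-leptotene cells, where it fell by 2.79 (SE 0.55, adjusted p = 0.048) and 0.686% of all genes passed, 0.0502% higher and 0.636% lower. That call was lost without spermatogonia replicate 1 (adjusted p = 0.14) or 2 (0.085) and without pre-leptotene replicate 1 (0.15) or 3 (0.19). It was lost as well with no filter (0.12), a second quantile normalization (0.063), centring (0.056), values under 5 raised to 5 (0.061) and the arrays of the compared fractions only (0.43).

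The summed round spermatid markers moved with Fhl5 in some fractions and not in others. In spermatogonia replicates 1 to 4 the markers were 120991, 155407, 67321 and 41639, the same order as the 4 Fhl5 values. They were low in both pre-leptotene cells and the late-pachytene array. In leptotene-zygotene replicates 1 to 3 they were 43348, 26840 and 29246, overlapping with the pre-leptotene sums. Fhl5 in leptotene-zygotene cells lay above every pre-leptotene array. In diplotene cells, where Fhl5 was at 8.73 and 8.88, the markers were at 25804 and 23376, lower than in early- and mid-pachytene cells. In spermatogonia replicate 2 the signals of Crem, Gtf2a1l and Sox5 were likewise the highest of their group. Pre-leptotene replicate 2, of the same array project, was also highest in its group for these 3 genes and for the markers. In leptotene-zygotene cells the 3 genes were highest in replicate 3 and the markers in replicate 1. Over the 20 arrays the correlation with the log2 marker sums was r = 0.13 for Crem, 0.077 for Gtf2a1l, 0.36 for Sox5 and 0.71 for Fhl5. The part of spermatid RNA in the signals of these genes before pachynema was not tested, and without spermatogonia in the mean before pachynema, an alternative chosen after seeing the data, all 9 genes kept their call in round spermatids.

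**Figure D2:**
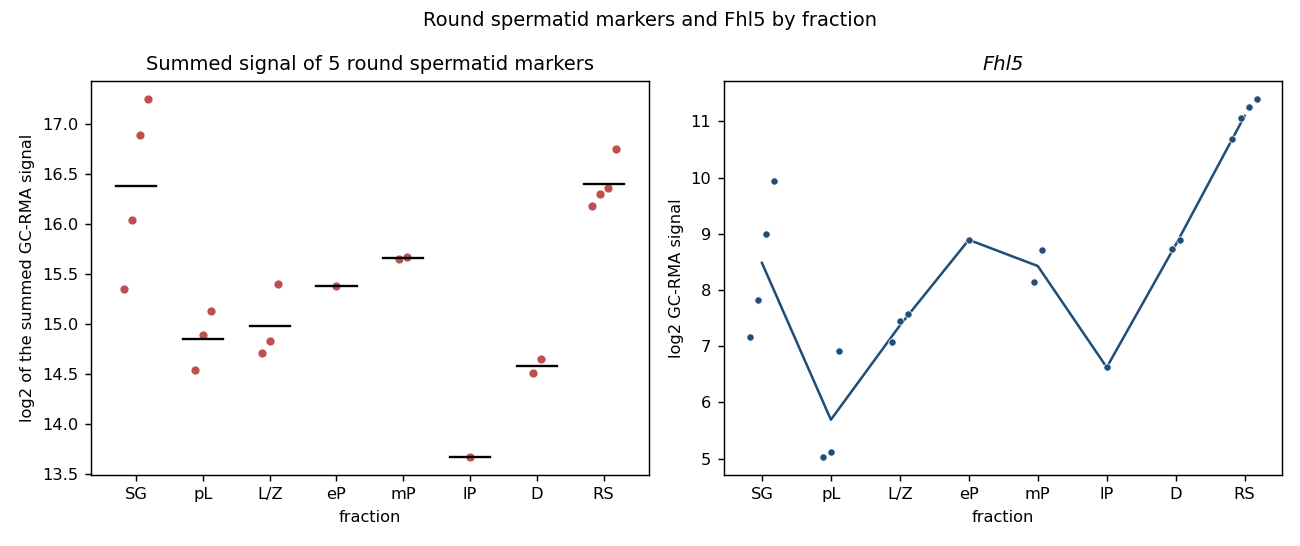
Left, log2 of the summed GC-RMA signal of 5 round spermatid markers; right, log2 GC-RMA signal of Fhl5; both by fraction, each point being 1 array, with bars on the left and the line on the right at the fraction means. Spermatogonia are high and pre-leptotene and late-pachytene cells low in both panels, whereas diplotene cells are low for the markers at 23376 and 25804 but not for Fhl5. Leptotene-zygotene arrays overlap with pre-leptotene arrays for the markers but not for Fhl5.

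Sox30, an HMG-box factor needed for spermatid development, is read by a single probe set. The 250 bases before a transcript start 1241 bases inside the annotated gene, on the plus strand of chr11:45980060-45980309, are shown because its rise into mid-pachytene passed the test, with the MYB core in capitals.

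Sox30: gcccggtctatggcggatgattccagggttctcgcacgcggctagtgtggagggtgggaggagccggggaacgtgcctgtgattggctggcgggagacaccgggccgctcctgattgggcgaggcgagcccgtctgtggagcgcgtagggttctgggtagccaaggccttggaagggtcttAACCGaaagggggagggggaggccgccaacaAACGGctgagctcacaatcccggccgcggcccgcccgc

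Sox30 had 4.45, 4.89, 5.28 and 5.32 in spermatogonia, 5.10, 4.25 and 4.47 in pre-leptotene and 5.62, 6.06 and 5.97 in leptotene-zygotene cells. It had 5.84 in early-pachytene, 7.54 and 8.01 in mid-pachytene, 8.93 in late-pachytene, 8.95 and 8.99 in diplotene cells and 7.42, 8.34, 8.91 and 8.92 in round spermatids. Early-pachytene lay inside the range of leptotene-zygotene cells and mid-pachytene above it, and round spermatids reached neither above diplotene cells nor clear of mid-pachytene cells. The rise into mid-pachytene was 1.89 (SE 0.42, adjusted p = 0.0041), and the call was lost only without mid-pachytene replicate 2 (1.65, adjusted p = 0.070) among single arrays. The rise from before pachynema to round spermatids was 3.24 (SE 0.27, adjusted p = 1.7e-08), and 3.04 with values under 5 raised to 5.

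Sox5, another HMG-box factor with a short testis form, had 5.11, 6.79, 5.10 and 5.49 in spermatogonia, 4.50, 5.97 and 4.40 in pre-leptotene and 5.46, 5.21 and 6.87 in leptotene-zygotene cells. It had 8.15 in early-pachytene, 6.75 and 8.0 in mid-pachytene, 6.95 in late-pachytene and 8.20 and 8.54 in diplotene cells. Round spermatids had 11.58, 11.05, 11.09 and 10.63, more than 2 log2 units above the highest other array. The step from diplotene cells to round spermatids was a rise of 2.72 (SE 0.58, adjusted p = 0.0030), 2.55 and 3.39 within the 2 array projects that held both, and the rise over the mean of mid-pachytene and diplotene cells was 3.22 (SE 0.48, adjusted p = 6.3e-05). Both calls were kept without any single array.

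The other tested probe sets of Sox5 shared the maximum in round spermatids but not the whole course. The one called 1432189_a_at had 8.83, 10.08, 10.80 and 9.90 in round spermatids, against 7.41 and 8.20 in diplotene cells. The one called 1440827_x_at, whose suffix marks probes that can match other sequences, had 8.67, 7.16, 6.80 and 6.33 in round spermatids, 5.49 and 3.99 in diplotene cells and at most 4.19 in every earlier array. All 3 were highest in round spermatids with no overlap, and their rise over the mean of mid-pachytene and diplotene cells was 3.22, 2.67 and 2.87. The step from diplotene cells to round spermatids passed for 1440827_x_at (adjusted p = 0.0035). For 1432189_a_at that step was a rise of 2.10 (SE 0.82, adjusted p = 0.075) and did not pass.

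Ovol1, a zinc finger factor that male germ cells need to pass through pachynema, had the smallest range of the 9 genes. It had 5.27, 5.24, 5.92 and 5.77 in spermatogonia, 5.98, 5.71 and 6.08 in pre-leptotene, 4.92, 5.85 and 5.89 in leptotene-zygotene, 6.08 in early-pachytene and 6.10 and 6.08 in mid-pachytene cells. It then had 7.45 in late-pachytene, 7.27 and 7.97 in diplotene cells and 7.02, 7.27, 7.08 and 7.32 in round spermatids. The 8 fractions fell into a level of about 6 or less up to mid-pachynema and one of 7 or more after it, with no array between.

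The step from mid-pachytene to diplotene cells was a rise of 1.53 (SE 0.36, adjusted p = 0.0080), and it was 1.17 and 1.89 within the 2 array projects that held both fractions. The call was lost without mid-pachytene replicate 1 (adjusted p = 0.052) or diplotene replicate 2 (1.18, adjusted p = 0.11), and with the arrays of the compared fractions only (0.085). The second probe set, 1419052_at, had the same shape and a rise of 1.84 over this step (SE 0.41, adjusted p = 0.0056).

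The order in which the 7 rising genes came up was read from the fraction means. The rise of a gene was taken from its lowest mean before pachynema to its highest mean from early-pachytene on, and the onset was the first fraction after that lowest one whose mean lay at or above the midpoint, 50% of the rise on the log2 scale. By this measure, read from the probe set that stands for each gene, Gtf2a1l, Crem, Tbpl1, Fhl5 and Sox5 reached the midpoint in early-pachytene. Sox30 did so in mid-pachytene and Ovol1 in late-pachytene, and the early- and late-pachytene fractions held 1 array each. Further tested probe sets of Crem, Tbpl1 and Sox5 came later. Crem 1418322_at and 1449037_at, Tbpl1 1434907_at and Sox5 1432189_a_at reached it in mid-pachytene, and Sox5 1440827_x_at in round spermatids. Ovol1 1419052_at reached it in late-pachytene as well. Gtf2a1l was the most advanced, with 46.9% of its rise in leptotene-zygotene and 80.7% in early-pachytene cells, followed by Crem with 75.3% and Tbpl1 with 66.8% in early-pachytene. The early-pachytene array shared its array project with spermatogonia replicate 2 and pre-leptotene replicate 2, each the highest of its group for Crem, Gtf2a1l and Sox5. No leptotene-zygotene or mid-pachytene array was of that project. The share of array project in the early-pachytene onsets was not tested.

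Sox5 and Fhl5 only just reached the midpoint in early-pachytene and did not stay there. Sox5 stood at 52.0% of its rise in early-pachytene, 39.4% in mid-pachytene, 32.5% in late-pachytene and 55.6% in diplotene cells. Fhl5 stood at 59.2%, 50.6%, 17.2% and 57.6% in the same fractions, and at 51.6% in spermatogonia. When the midpoint had to be held in every later fraction, both moved to diplotene and the other 5 genes stayed where they were. On linear signals, where the midpoint lies nearer the maximum, Sox30 and Ovol1 came first, in late-pachytene, followed by Crem, Tbpl1 and Gtf2a1l in diplotene cells and Sox5 and Fhl5 in round spermatids. The place of Sox30 and Ovol1 against Crem, Tbpl1 and Gtf2a1l thus depended on the scale. Requiring the midpoint to hold was a choice made after the data were seen.

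**Figure D3:**
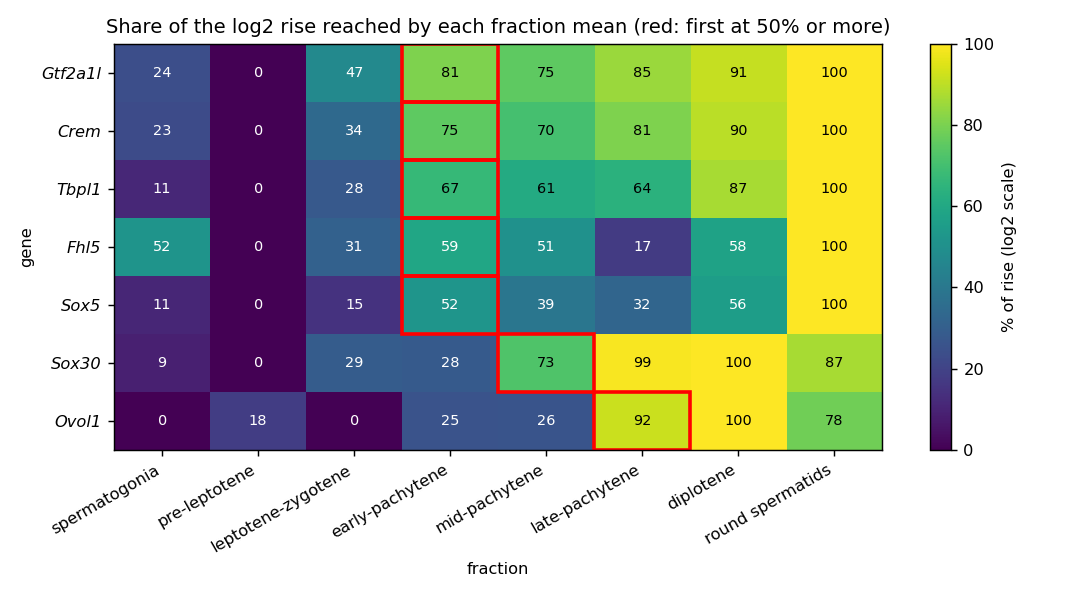
Share of the log2 rise (colour and number, in percent) that each fraction mean (horizontal axis) had reached for the 7 genes that rose (vertical axis); the red frame marks the first fraction from early-pachytene on at 50% or more. Gtf2a1l, Crem and Tbpl1 stay at 61.1% or more from early-pachytene on, whereas Sox5 and Fhl5 fall back to 32.5% and 17.2% in late-pachytene.

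Counted step by step, few of the 9 genes passed in any one step. No member passed from leptotene-zygotene to early-pachytene, where 5.38% of all genes did, 2.33% higher and 3.05% lower, although 4 of the 9 had an unadjusted p under 0.05 in limma, against 28.3% of all genes, and the single early-pachytene array lay outside the leptotene-zygotene range for 8 of them, as it did for 76.9% of all genes. Without leptotene-zygotene replicate 3 Crem, with 3.34 (adjusted p = 0.045), and Sox5, with 2.81 (0.035), passed this step. From leptotene-zygotene to mid-pachytene 3 of 9 passed, Crem and Sox30 higher and Taf7l lower, against 33.3% of all genes, 16.2% higher and 17.1% lower. That count was 0 without mid-pachytene replicate 2, 1 without leptotene-zygotene replicate 1 and 5 without leptotene-zygotene replicate 3. From mid-pachytene to diplotene cells 2 of 9 passed, Ovol1 higher and Taf7l lower, against 22.4% of all genes, 7.11% higher and 15.3% lower. From diplotene cells to round spermatids 2 of 9 passed, Sox5 and Fhl5, both higher, against 27.7% of all genes, 13.5% higher and 14.2% lower. Against the mean of mid-pachytene and diplotene cells 4 of 9 passed, Sox5 and Fhl5 higher and Taf7l and Taf7 lower, where 51.3% of all genes did, 22.3% higher and 29.1% lower. With 9 genes these counts are near the shares of all genes and set the members apart in no step. The call of Taf7l in the last comparison, -1.04 (SE 0.35, adjusted p = 0.025), came with overlapping arrays and was lost without mid-pachytene replicate 1 (0.11), diplotene replicate 1 (0.13) or round spermatid replicate 2 (0.052) or 4 (0.088), with array project as a block (-0.69, adjusted p = 0.052) and with the arrays of the compared fractions only (0.090).

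Array project codes, which the supplementary data carry, could be attached to the arrays because the signals given there equal those of 1 array each. Arrays of 1 project deviated together from their fraction means (21 pairs, r from 0.12 to 0.70), so the fit was repeated with project as a block. With it 5 genes passed from leptotene-zygotene to mid-pachytene, where 45.0% of all genes did in the same fit, Tbpl1 with 1.34 (adjusted p = 0.0054) and Gtf2a1l with 1.88 (0.042) being added, and 4 from mid-pachytene to diplotene cells, against 34.1% of all genes, Sox30 with 1.20 (0.048) and Tbpl1 with 0.81 (0.044) being added. From diplotene cells to round spermatids 4 passed, against 32.4%, with Taf7 at -1.92 (0.0055) and Taf7l at 1.06 (0.025) added, and all 9 passed from before pachynema to round spermatids in the same directions, against 84.4%. The block thus raised the share of all genes called as well. Of the earlier steps, Crem rose by 2.44 (0.023) from pre-leptotene to leptotene-zygotene cells, where 6.00% of all genes passed, and Gtf2a1l fell by 2.14 (0.040) from spermatogonia to pre-leptotene cells, where 5.24% did.

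Of the 9 members 4 have a close general relative on the same arrays, and the change of each pair was compared within arrays. The log2 difference between Gtf2a1l and Gtf2a1, the ubiquitous TFIIA subunit, was 5.28 higher in the 4 round spermatid arrays than in the 10 arrays before pachynema (exact two-sided permutation test, p = 0.002, adjusted p = 0.004 over the 4 pairs), and that between Crem and Creb1 was 6.83 higher (p = 0.002, adjusted p = 0.004). In both pairs round spermatids did not overlap with the arrays before pachynema, and 0.002 is the smallest p this design can give. The test took the 10 arrays of 3 fractions as replicates of a single group and left array project out. Within that group the difference ranged from -4.48 to 2.85 for Gtf2a1l and from -4.00 to 0.94 for Crem. Gtf2a1 itself rose by 0.61 (SE 0.26, adjusted p = 0.043), and Creb1 fell by 1.73 (SE 0.20, adjusted p = 7.4e-07). Gtf2a1l and Crem therefore rose more than their relatives did, with 2 more probe sets of Gtf2a1 giving differences of 5.40 and 7.68. The size of the Crem difference holds for its lead probe set, which rose by 5.15. The further tested sets 1418322_at and 1449037_at rose by less, 2.62 and 0.98.

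The other pairs did not separate. Tbp, the TATA-binding protein, rose to round spermatids by 2.53 (SE 0.33, adjusted p = 2.8e-06), and the difference between Tbpl1 and Tbp changed by 0.20 (exact permutation p = 0.42, adjusted p = 0.42). In the single array of early-pachytene that difference was higher than in all other arrays, and with 1434907_at for Tbpl1 it fell by 2.49 instead (exact permutation p = 0.002). Between Taf7l and Taf7 the difference changed by -1.01 (exact permutation p = 0.12, adjusted p = 0.15), with 1 round spermatid array, the one in which Taf7 was at 5.34, far above the other 3. Without that array the changes were -1.85 for Taf7l against Taf7 (exact permutation p = 0.0070) and 0.41 for Tbpl1 against Tbp (exact permutation p = 0.014).

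**Figure D4:**
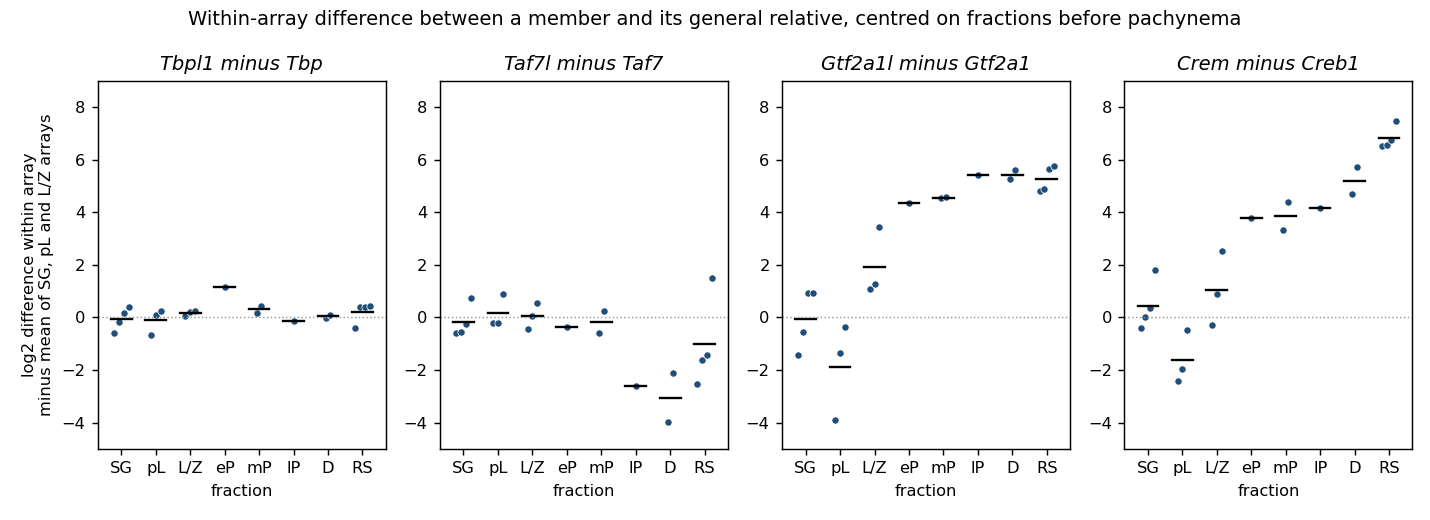
Log2 signal of a member minus that of its general relative within each array (vertical axis), with the mean of the 10 arrays before pachynema set to 0, by fraction (horizontal axis); points are arrays and bars fraction means. The round spermatid means lie at 0.20, -1.01, 5.28 and 6.83 for the 4 pairs from left to right.

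The probe sets of one gene did not always share a course, and where they differ the gene's direction rests on the probe set named. The lead probe sets of Tbpl1, Crem and Sox5 were highest in round spermatids. Of the further tested sets, those of Sox5 were too, those of Crem were highest in late-pachytene, and that of Tbpl1 was highest in late-pachytene and back at its early level in round spermatids. Correlations over the 20 arrays with the lead set were 0.81 and 0.68 for Crem, 0.96 and 0.90 for Sox5, 0.89 for Taf7 and 0.87 for Ovol1, beside 0.33 for Tbpl1, all over arrays that share their 8 fractions.

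**Figure D5:**
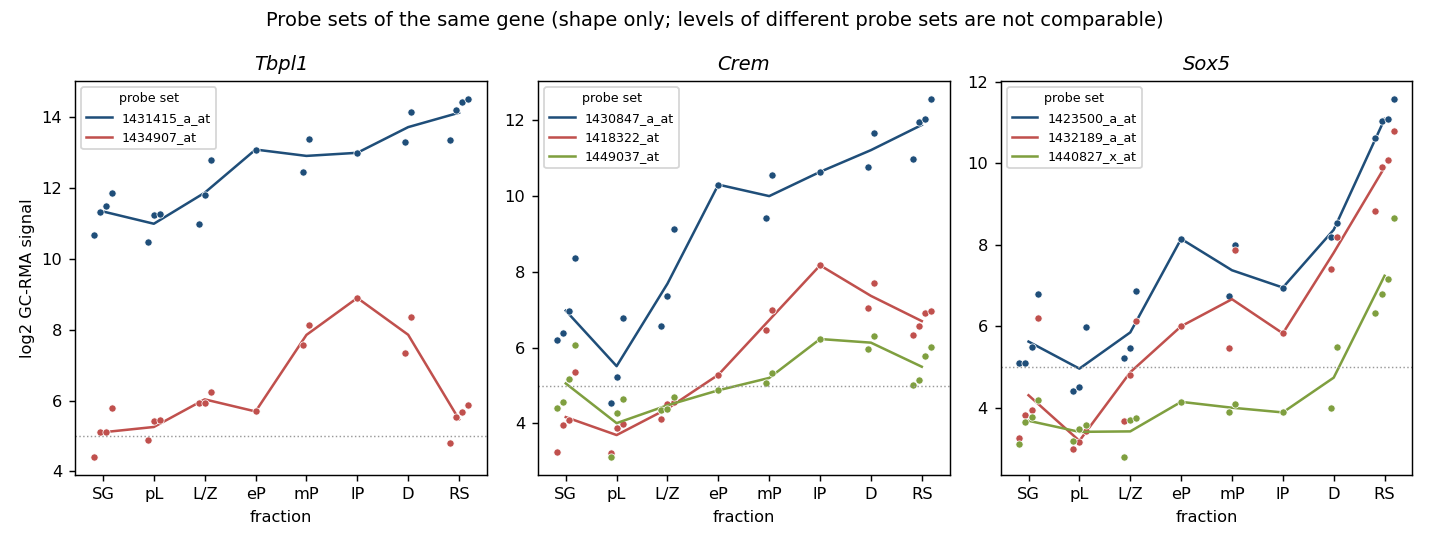
Log2 GC-RMA signal (vertical axis) of the tested probe sets of Tbpl1, Crem and Sox5 by fraction (horizontal axis), each point being 1 array and each line the fraction means of 1 probe set. Tbpl1 1434907_at falls from 8.89 in late-pachytene to between 4.79 and 5.88 in round spermatids, while 1431415_a_at is at 12.98 in late-pachytene and between 13.34 and 14.50 in round spermatids.

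The genes around the members in their pathways were read from lists written for the purpose, and their counts from before pachynema to round spermatids stand beside the 83.0% of all genes that passed that comparison. Of 13 tested TFIID subunits other than Taf7l and Taf7, 2 rose and 8 fell from before pachynema to round spermatids, with a median change of -0.97 against -0.22 over all genes. Taf1, the largest subunit, fell by 6.34, Taf4b, the germ cell form of Taf4, by 5.43, Taf4 by 5.38 and Taf9b by 5.36 (adjusted p at most 2.6e-08 in each), and Tbp and Taf12 were the 2 that rose. Of 16 tested subunits of the other general factors 6 rose and 6 fell, with a median of -0.17. Among them Gtf2b rose by 2.10 and Gtf2h3, Gtf2e1 and Ccnh fell by 3.77, 2.54 and 2.46.

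Of 11 tested relatives and coactivators of the CREB family 4 rose and 7 fell. Creb3l4, a testis-rich membrane-bound CREB relative, rose by 5.26 and Fhl4, a LIM-domain relative of Fhl5 from the testis, by 4.02, whereas Fhl1 fell by 5.10 and Crtc2, a CREB coactivator, by 3.01. Of the 6 genes known to need Crem, 4 passed from before pachynema to round spermatids, Tnp2 at 1.60, Odf1 at 1.55, Tnp1 at 1.45 and Smcp at 1.10, and Prm2 and Prm1 did not, at 0.51 and 0.25. All 6 passed as higher from diplotene cells to round spermatids, where 13.5% of all genes did, with a median of 1.79 against -0.052 over all genes. Their summed signal was 50247 to 207864 in spermatogonia, 23928 and 29774 in diplotene cells and 75594 to 124299 in round spermatids. In pre-leptotene cells it was 26796 to 45587. These genes overlap with the round spermatid markers above in Prm1, Prm2, Tnp1 and Tnp2.

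All 5 tested relatives of the SOX and OVOL factors passed, beside that 83.0% of all genes. Ovol2 rose by 5.66 and Sox6, a partner of SOX5 in the same subfamily, by 5.11, and Sox12, Sox4 and Sox13 fell by 5.66, 5.65 and 2.70. All 4 regulators known from pachynema rose, where 38.7% of all genes did, Rfx2 by 4.37, Mybl1 by 3.86, Brdt by 3.38 and Tcfl5 by 1.38. From leptotene-zygotene to mid-pachytene, where 33.3% of all genes passed and 16.2% passed as higher, these 4 had passed as higher already, with a median rise of 2.10.

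The genes with the course most like each member were taken by the highest Pearson correlation over the 20 arrays, as a description over arrays that share their fractions. They were Ssmem1, 1700008O03Rik and Slc2a5 for Crem, with r = 0.99 each, Apobec4, Zfp37 and Hyal5 for Sox5 with r = 0.99 each, and Cypt12, Tmco5 and 4930407I10Rik for Fhl5 with r = 0.99 each. For Gtf2a1l they were 4930544G11Rik and Tekt1 with r = 1.00 and Pabpc2 with r = 0.99, for Tbpl1 Phospho2, Ppp1r42 and Fam118b with r = 0.99 each, and for Taf7l Fermt2, Atp7a and Taf9b with r = 0.99 each. Those of Sox30 were Stk36, Npepps and D430042O09Rik with r = 0.98 each, those of Taf7 were Rsl1d1 with r = 0.98 and Atp5a1 and Bnip2 with r = 0.97, and those of Ovol1 were Hcfc2, Chka and Zkscan6 with r = 0.94, 0.93 and 0.93. 

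Windows of 250 bases before the transcript starts in the RefSeq promoters were searched on both strands for 4 motifs in 6 members, 7 windows in all, Fhl5 having 2. Only the first window of Fhl5 ended at the outermost start of its gene, and the starts of the others lay inside, by 15 bases in Taf7l, 586 in the second window of Fhl5, 1219 in Tbpl1, 1241 in Sox30, 3167 in Gtf2a1l and 835181 in Sox5. The full CRE TGACGTCA, present in 1.55% of 32851 such windows of the genome, and the shorter TGACG, which lies within it and is present in 17.8%, were in none of the 7. The MYB core AACNG, present in 74.2% of all windows, was in all 7, and the SOX core ACAAT, present in 27.7%, was in 1 window each of Fhl5, Sox5, Sox30 and Taf7l. In Gtf2a1l 2 of the 3 MYB cores lay within 41 bases of that transcript start, and in Sox30 both lay within 69 bases. A match describes letters in a window and not a bound site, and a motif found in most windows sets none of these genes apart.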

How the data were processed

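The authors hybridised RNA of sorted testis fractions to Affymetrix Mouse Genome 430 2.0 arrays and deposited linear GC-RMA signal intensity values per probe set. The deposited intensity values were taken to log2, and no other scaling was applied. Probe sets were named from the platform annotation: of 45037, 34945 had 1 gene, 932 several and 9160 none, and probe sets with several genes were not used. Median signals per array, on the linear scale before the log2 step, lay between 11.1 and 12.7. Probe sets with a log2 signal of at least 5 in at least 2 arrays (22396) were fitted with limma 3.58.1 in R 4.3.3, with the 8 fractions as groups over all 20 arrays (12 residual degrees of freedom) and Benjamini-Hochberg adjustment within each of 8 two-sided comparisons at 0.05. P-values measure the spread between these arrays, which are pools of sorts. Counts over genes used the probe set with the highest mean for each of 11952 genes. Paralog pairs were compared within arrays by exact two-sided permutation tests (scipy 1.17.1), adjusted over 4 pairs. Genes named were the 9 members, the 3 nearest genes of each, the paralogs and, of each list, at most 4 genes past the threshold with the largest change from before pachynema to round spermatids. Taf12, Sox13, Prm1 and Prm2 fall outside that rule and were named after their values were seen, to complete small counts. The members and lists were chosen with earlier results of these data known. The limma fit was tested on simulated data. Alternatives were no filter, a second quantile normalization, median centring, a floor at 5, an intensity trend, array project or replicate number as a block, the compared fractions only, all member probe sets in place of the lead, the other probe set of a paralog, leptotene-zygotene cells alone, leaving out each array, and other midpoints. Promoter windows came from RefSeq on GRCm38.p6; no window was used for Crem, Taf7 and Ovol1.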

Additional observations from a re-analysis of the deposited data

Results flagged for a closer look

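Taf7 (1423169_at) in round spermatids had 1 array far from the others: replicate 1 was at 5.34 and the other 3 at 7.50 to 7.70, so that the gap to the nearest was 0.916 of the whole range, above Dixon's 95% critical value for 4 arrays. Of 32 groups of 4 arrays tested 1 exceeded it, and chance gives about 1 in 20. The second tested probe set of Taf7, 1423170_at, had 4.89 in that array and 6.19, 6.26 and 4.67 in the others. Without replicate 1 Taf7 fell by 2.68 from before pachynema in place of 3.24 on the log2 scale, and the change between Taf7l and Taf7 was -1.85 (exact permutation p = 0.0070) in place of -1.01.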

How the results depend on the processing

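From before pachynema to round spermatids the lead probe sets of all 9 genes kept their direction and side of the threshold under every alternative run on them, with 9 called also when single arrays were left out, whereas Tbpl1 1434907_at did not pass. The single steps, each resting on 1 to 4 arrays a fraction, did not. From spermatogonia to pre-leptotene cells the count of 1 became 0 without the filter, after quantile normalization, with centring, with the floor and with the compared fractions only, and 2 with array project as a block. From pre-leptotene to leptotene-zygotene cells the count of 1 became 0 without the filter and with the compared fractions only, and 2 with the project block. The project block also gave 5 in place of 3 from leptotene-zygotene to mid-pachytene, 4 in place of 2 from mid-pachytene to diplotene cells, where the compared fractions only gave 0, and 4 in place of 2 from diplotene cells to round spermatids. Leaving out single arrays gave 0 to 1, 0 to 1, 0 to 2, 0 to 5, 1 to 2 and 1 to 2 for the 6 steps in order, and 3 to 5 against the mean of mid-pachytene and diplotene cells. The cause was not tested.

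With replicate number as a block, the replicate block gave 3 from pre-leptotene to leptotene-zygotene, 5 from leptotene-zygotene to mid-pachytene and 4 from mid-pachytene to diplotene cells. The share of all genes called in that fit was not computed, so these counts cannot be read as a trait of the members. The numbers were not taken as a pairing in the main fit, and arrays of the same number were not always of the same array project. Same-numbered arrays correlated above 0.1 in 33 of 37 pairs (median r = 0.33), against 14 of 96 pairs with other numbers (median r = -0.11). Deviations from a fraction mean cancel out within the fraction, so a positive r for some pairs forces lower values among the others. In fractions of 2 arrays the deviations are mirror images of each other. The pairs are therefore not independent, and the contrast between same and other numbers is partly built in. The main fit did not take out joint deviations of same-numbered arrays.

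The count of 5 genes with onset in early-pachytene became 2 at 25% of the rise, Sox5 and Ovol1, with Crem, Sox30, Tbpl1, Fhl5 and Gtf2a1l in leptotene-zygotene cells. It became 2 at 75%, 0 on linear signals and 3 where the midpoint had to hold, and 4 to 5 without single arrays. With values under 5 raised to 5 it was 4, Sox5 moving to diplotene cells. Tbpl1 minus Tbp was -2.49 with 1434907_at and 0.13 to 0.41 without single arrays, and Taf7l minus Taf7 -1.85 to -0.50. Against leptotene-zygotene cells alone Gtf2a1l minus Gtf2a1 was 3.36 and Crem minus Creb1 5.80 (exact permutation p = 0.057, the smallest that 3 against 4 arrays allow); without single arrays they were 4.85 to 5.66 and 6.56 to 7.11.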
